A study of Mus musculus with 67 samples.

Results

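A set of 6 genes that handle lactate and pyruvate was followed across mouse intestinal organoids and crypts by bulk RNA-seq. They were Ldha and Ldhb, which encode the subunits of lactate dehydrogenase, Slc16a1 and Slc16a3, which encode the plasma membrane lactate carriers MCT1 and MCT4, and Mpc1 and Mpc2, which encode the mitochondrial pyruvate carrier. They were chosen by name as 6 of the 29579 genes in the deposited table, because Ldhb is far higher in the 8C condition than in the ENR condition. The levels of Ldhb in those conditions are therefore given as a description, without a test.

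Organoids grown from crypts of the proximal small intestine gave 49 libraries in 10 media, and isolated crypts gave 18 libraries in 9 groups of 2. Both base media contained EGF at 50 ng/mL. In ENR (n = 7) it was joined by noggin (100 ng/mL) and R-Spondin 1 (500 ng/mL). In 8C (n = 7) the other components were LDN193189 (0.2 µM), GSK3iXV (0.1 µM), Pexmetinib (1 µM), FGF2 (20 ng/mL), conditioned medium with R-Spondin 1 (10%), VPA (500 µM), which blocks histone deacetylases, and EPZ6438 (2 µM), which blocks the methyltransferase EZH2. Further media left components out of 8C, namely VPA (8C-V, n = 6), EPZ6438 (8C-E, n = 7), VPA and EPZ6438 together (8C-VE, n = 7), and GSK3iXV, Pexmetinib, FGF2 or EGF (8C-GSK3i, 8C-Pex, 8C-bFGF and 8C-EGF, n = 3 each). ENR+VE (n = 3) was ENR with VPA and EPZ6438, at doses the labels do not give. Crypts were labelled normal or came from mice 1, 2, 3 or 5 days after irradiation without (IR) or with (IR+VE) VPA and EPZ6438. The study's figure legends count replicates of part of these groups in mice, but neither they nor the labels say which library came from which animal or culture. The p-values therefore measure the spread between libraries, part of which may be technical.

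Values are TPM, a read count divided by transcript length and scaled to the library total, and the depth of the libraries is unknown. Organoid columns summed to between 983801 and 988144 TPM with a mitochondrial share of 1.52% to 6.64%, whereas crypt columns summed to between 819346 and 910935 TPM with a mitochondrial share of 10.6% to 48.4%, so levels were not compared between the 2 kinds of sample. Organoid libraries numbered 4 to 6 stood apart from those numbered 1 to 3 in ENR, 8C-VE, 8C-E and 8C-V, and for fewer genes in 8C. In 8C, 19.3% of the genes that averaged 1 TPM or more were lower there without overlap, and 15.4% were higher, Ldhb and Mpc1 among them. Many member results are given for each set of numbers. In the deposited column order, the 8C-GSK3i, 8C-Pex, 8C-bFGF and 8C-EGF libraries stand among numbers 4 to 6 of the other media. ENR+VE libraries stand among numbers 1 to 3, and what this order stands for is not given by the labels. In bulk samples, fewer cells of a type and less RNA per cell cannot be told apart.

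Lactate dehydrogenase is a tetramer of Ldha and Ldhb subunits that interconverts pyruvate and lactate. Tetramers rich in Ldha are known from tissues that make lactate by glycolysis, and tetramers rich in Ldhb from tissues that oxidize it. Slc16a1 and Slc16a3 move lactate with a proton across the plasma membrane, and each needs a partner glycoprotein, basigin (Bsg) or embigin (Emb), to reach it. Mpc1 and Mpc2 together carry pyruvate into mitochondria, where pyruvate dehydrogenase turns it into acetyl-CoA. Ldha and Slc16a3 are classic targets of the hypoxia-inducible factor.

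Because the subunit genes behaved so differently, the promoters of Ldhb and Ldha are shown side by side. Each is a window from 250 bases before to 50 bases after the RefSeq start on GRCm38.p6, with CpG dinucleotides in capitals. The Ldhb window is chr6:142507908-142508207 on the minus strand, and the Ldha window is chr7:46845554-46845853 on the plus strand.
Ldhb: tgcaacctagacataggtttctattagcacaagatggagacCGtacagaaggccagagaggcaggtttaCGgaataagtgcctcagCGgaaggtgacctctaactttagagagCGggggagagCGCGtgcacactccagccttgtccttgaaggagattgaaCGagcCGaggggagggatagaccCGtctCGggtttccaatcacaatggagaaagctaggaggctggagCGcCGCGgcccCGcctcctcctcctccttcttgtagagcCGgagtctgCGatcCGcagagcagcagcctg
Ldha: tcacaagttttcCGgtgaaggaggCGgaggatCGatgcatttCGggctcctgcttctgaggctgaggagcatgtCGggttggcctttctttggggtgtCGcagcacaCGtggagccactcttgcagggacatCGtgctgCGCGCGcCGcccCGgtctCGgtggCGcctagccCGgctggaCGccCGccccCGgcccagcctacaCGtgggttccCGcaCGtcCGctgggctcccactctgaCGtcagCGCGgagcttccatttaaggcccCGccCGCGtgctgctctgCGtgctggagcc
The Ldhb window holds 17 CpG and is 57.3% G and C, and 31.4% of 32817 promoter windows hold as many. The Ldha window holds 30 CpG and is 67.3% G and C, and 11.7% of windows hold as many. A second Ldha window, chr7:46846832-46847131, holds 13 CpG, is 56.7% G and C and has 0 ACGTG, and 37.9% of windows hold as many CpG. The windows of Slc16a1 and Slc16a3 hold 42 and 36 CpG, that of Mpc2 holds 24, and the 2 windows of Mpc1 hold 39 and 18. The core of the hypoxia response element is ACGTG or GCGTG. The letters ACGTG occur 5 times in the Ldha window shown, 3 times in that of Slc16a1 and 2 times in that of Slc16a3, counted on both strands, so that a CACGTG counts on each. They are absent from the windows of Ldhb, Mpc1 and Mpc2, and 19.6% of all windows hold them. The letters GCGTG, held by 32.4% of all windows, occur 2 times in each Ldha window and in that of Slc16a1, 1 time in the windows of Ldhb and Mpc2 and in 1 of the 2 windows of Mpc1, and 0 times in that of Slc16a3. A match in letters is a description and was not tied to binding of any factor here.

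In GENCODE coordinates on GRCm38, Ldhb (ENSMUSG00000030246.11) spans chr6:142490249-142507957 on the minus strand and Ldha (ENSMUSG00000063229.15) spans chr7:46841475-46855627 on the plus strand. Slc16a1 spans chr3:104638668-104658462, Slc16a3 chr11:120948480-120960868, Mpc1 chr17:8282904-8297661 and Mpc2 chr1:165460637-165481214, all on the plus strand. Ldha has processed pseudogenes in the mouse genome, and how reads that match several places were counted is not given in the sources used here. Ldhc, the testis subunit gene beside Ldha, averaged under 0.05 TPM in each of the 6 media of the VPA and EPZ6438 comparisons.

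Ldhb was close to 0 TPM in ENR medium and at 44.6 TPM or more in 8C medium, while Ldha was high in both. In ENR libraries Ldhb ran from 0.16 to 2.82 TPM with a median of 0.38 TPM, and in 8C libraries from 44.6 to 229 TPM with a median of 160.3 TPM. The lowest 8C library, numbered 7, was still far above the highest ENR library. The means were 0.920 ± 0.973 TPM (SD, n = 7) in ENR and 157 ± 62.2 TPM (SD, n = 7) in 8C, a ratio of 170.1, and without number 7 the 8C libraries ran from 127 to 229 TPM. Ldha averaged 2367 ± 133 TPM (SD, n = 7) in ENR and 2274 ± 97.6 TPM (SD, n = 7) in 8C. Ldhb thus made up 0.0390% ± 0.0421 (SD, n = 7) of the TPM of both subunit genes in ENR and 6.39% ± 2.42 (SD, n = 7) in 8C, so Ldha remained the main subunit transcript in each library.

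The media that lack VPA, EPZ6438 or both ask how far each compound moves Ldhb. The 8C-VE libraries held 1.07, 0.56, 0.58, 3.68, 2.43, 2.59 and 0.23 TPM of Ldhb for numbers 1 to 7, and their range overlapped that of ENR. With VPA alone (8C-E), Ldhb was 13.3, 12.5, 11.3, 19.8, 15.5, 23.6 and 6.39 TPM. With EPZ6438 alone (8C-V), numbers 1 to 6 held 55.6, 49.4, 33.3, 58.6, 59.2 and 48.6 TPM. The lowest library with VPA alone lay above the highest with neither compound, and the lowest with EPZ6438 alone lay above the highest with VPA alone.

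Ldhb rose with each compound. Genes were compared with limma on log2(TPM + 1), a scale that understates the change of a gene near 0, and a gene passed at a Benjamini-Hochberg adjusted p under 0.05 over all genes tested. With VPA alone Ldhb was 2.66 ± 0.32 (SE) higher than with neither compound on this scale (adjusted p = 4.2e-05). With EPZ6438 alone it was 4.46 ± 0.30 (SE) higher than with neither (adjusted p = 4.2e-07). EPZ6438 alone gave 1.79 ± 0.24 (SE) more than VPA alone (adjusted p = 2.2e-04), a comparison added after seeing the data, in which 9.05% of all genes passed. Ldhb was the member that passed in each of the first 2 comparisons, 1 of 6, where 10.6% and 6.05% of all genes passed. As a ratio of mean TPM, VPA alone gave 9.19 times and EPZ6438 alone 31.9 times the level with neither.

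**Figure D1:**
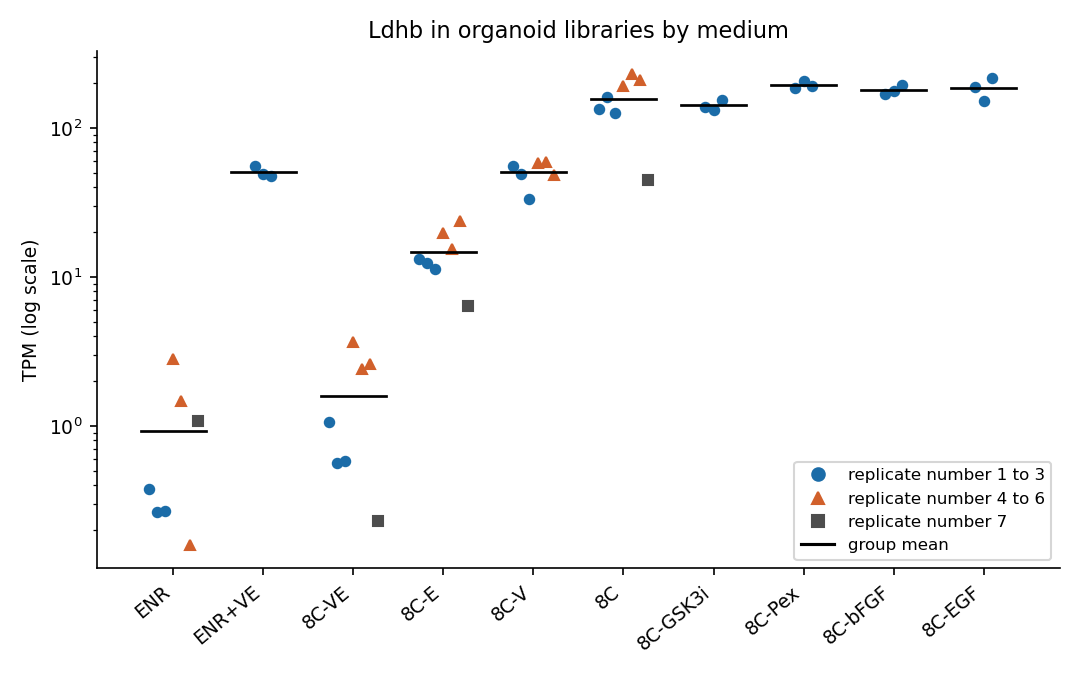
Ldhb in TPM on a log axis for each of the 49 organoid libraries by medium, with symbols for the replicate number and a bar for the group mean. ENR and 8C-VE libraries sit below 4 TPM, 8C-E between 6.39 and 23.6 TPM, 8C-V and ENR+VE between 33.3 and 59.2 TPM, and the media with both compounds in 8C base at 44.6 TPM or more.

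Adding VPA and EPZ6438 to ENR medium also raised Ldhb, to a level below every 8C library but number 7. The 3 ENR+VE libraries held 55.8, 48.9 and 47.6 TPM, 50.8 ± 4.4 TPM (SD, n = 3), and they overlapped the 8C-V libraries. Against 8C-VE libraries, Ldhb in ENR+VE libraries was 4.48 ± 0.39 (SE) higher (adjusted p = 6.7e-06). Ldhb took 2.13% ± 0.190 (SD, n = 3) of the TPM of the subunit genes in ENR+VE and 2.58% ± 0.853 (SD, n = 6) in 8C-V. The ENR+VE doses are not given by the labels, so the dose and the base medium cannot be told apart in a comparison with 8C.

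Removing any of GSK3iXV, Pexmetinib, FGF2 or EGF left Ldhb within the range of the 8C libraries. The libraries held 138, 133 and 154 TPM without GSK3iXV, and 187, 206 and 192 TPM without Pexmetinib. They held 168, 178 and 193 TPM without FGF2, and 189, 152 and 216 TPM without EGF. All of these 12 values lie between the lowest and the highest 8C library. That range is wide, as 8C ran from 127 to 160 TPM in numbers 1 to 3 and from 192 to 229 TPM in numbers 4 to 6. The 8C-GSK3i libraries all lay below each 8C library numbered 4 to 6. Tested for Ldhb against 8C-VE libraries, in comparisons added after seeing the data, the rises were 5.94 ± 0.39 (SE, adjusted p = 7.8e-07), 6.40 ± 0.39 (SE, adjusted p = 4.9e-07), 6.28 ± 0.39 (SE, adjusted p = 3.3e-07) and 6.32 ± 0.39 (SE, adjusted p = 4.1e-07) on the log2 scale. Of all genes, 20.4%, 19.4%, 20.5% and 22.2% passed in these comparisons. Of the 6 members, 2 passed without GSK3iXV, Ldhb and 1 other, and 1 passed in each of the rest. In order of mean level, 8C-Pex, 8C-EGF, 8C-bFGF, 8C and 8C-GSK3i came first with overlapping ranges between neighbours, then ENR+VE and 8C-V, which overlapped, then 8C-E, and last 8C-VE and ENR, which overlapped. The place of 8C rests on its numbers, with a mean of 140 TPM in numbers 1 to 3, below the media without GSK3iXV, Pexmetinib, FGF2 or EGF. In numbers 4 to 6 its mean was 210 TPM, above all of them.

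Within a medium Ldhb also differed between sets of replicate numbers. Numbers 4 to 6 lay above numbers 1 to 3, with no overlap, in 8C-VE, 8C-E and 8C, but not in ENR or 8C-V. Over all 12625 genes that averaged 1 TPM or more in organoids, 22.8%, 19.9% and 15.4% were higher without overlap in these 3 media. The rise of Ldhb with VPA alone passed in both sets, with 2.95 in numbers 1 to 3 (adjusted p = 5.0e-07) and 2.40 in numbers 4 to 6 (adjusted p = 5.0e-04). The rise with EPZ6438 alone was 4.74 in numbers 1 to 3 (adjusted p = 1.6e-06) and 3.86 in numbers 4 to 6 (adjusted p = 1.5e-05).

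The neighbours of Ldhb on chromosome 6 differed from each other. Gys2, the liver glycogen synthase gene 17140 bases away, was near 0 TPM throughout. Kcnj8, a potassium channel gene 56880 bases away, averaged 0.311 TPM in ENR, 0.160 TPM in 8C-VE, 1.43 TPM in 8C-E, 2.41 TPM in 8C-V, 25.3 ± 2.94 TPM (SD, n = 3) in ENR+VE and 16.6 ± 12.8 TPM (SD, n = 7) in 8C. Kcnj8 was 4.33 higher on the log2 scale in ENR+VE than in ENR (adjusted p = 1.5e-08) and 1.49 higher with EPZ6438 alone than with neither compound (adjusted p = 2.9e-04). It met the 1 TPM minimum there only through the groups where it is high, and without a minimum the adjusted p were 1.2e-07 and 0.00184. The pairs that flank the other 5 members were measured as well. Among them Ppm1j, beside Slc16a1, was 1.29 higher with VPA alone than with neither compound (adjusted p = 0.00291).

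The genes whose log2(TPM + 1) across the 49 organoid libraries was most like that of Ldhb, out of 11839 genes and by Pearson's r, were Prkch (0.971), Pald1 (0.968), Bex4 (0.967), Bex2 (0.965) and Arxes2 (0.964). By Spearman's rho the closest gene was Emb (0.952), and 0 of the 5 genes were the same. The media shape these values in all libraries at once, so they are descriptions. Among members, Ldha was most like Slc16a3 (r = 0.797), while Ldhb was unlike Ldha (r = -0.123). Among the closest of all genes were Pmvk (0.914) to Ldha, Rap1gds1 (0.932) and Mbtps2 (0.926) to Slc16a1, Pgs1 (0.939) and Got1 (0.917) to Slc16a3, Qdpr (0.8) and Mcfd2 (0.755) to Mpc1, and Coa3 (0.886) and BC031181 (0.834) to Mpc2.

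Slc16a3, the lactate exporter of glycolytic cells, differed with VPA and EPZ6438 in both base media. It was 2.03 times as high in ENR+VE as in ENR, and lower without both compounds than in 8C. The 3 ENR+VE libraries held 322, 333 and 351 TPM, and the ENR libraries ran from 129 to 197 TPM with a median of 163 TPM. All ENR+VE libraries lay above all ENR libraries, and the difference was 1.04 ± 0.15 (SE) on the log2 scale (adjusted p = 5.2e-04). ENR+VE has numbers 1 to 3 only, and the difference was 0.77 against ENR numbers 1 to 3 (adjusted p = 5.9e-05) and 1.31 against ENR numbers 4 to 6 (adjusted p = 2.6e-06). It was 1 of 5 members tested to pass, where 20.7% of all genes passed. Leaving out any single library kept it at an adjusted p of at most 0.00485.

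In 8C base medium the size of the Slc16a3 difference depended on the replicate numbers. In 8C-VE, numbers 1 to 3 held 176, 189 and 180 TPM, numbers 4 to 6 held 69.9, 60.6 and 57.9 TPM, and number 7 held 165 TPM. In 8C, the 7 libraries ran from 254 to 308 TPM with a median of 275 TPM, above every 8C-VE library. Slc16a3 fell by 1.27 (SE 0.27) in 8C-VE against 8C (adjusted p = 0.00232). The difference was -0.61 within numbers 1 to 3 (adjusted p = 0.00131) and -2.05 within numbers 4 to 6 (adjusted p = 2.7e-06). It was 1 of 5 members tested that passed, where 23.4% of all genes passed. Between the base media without the compounds, Slc16a3 in 8C-VE differed from ENR by -0.51 (adjusted p = 0.323). That difference was -0.11 within numbers 1 to 3 (adjusted p = 0.128) and -1.09 within numbers 4 to 6 (adjusted p = 3.0e-04).

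The compounds taken singly were less clear for Slc16a3. Without VPA (8C-V) it was 207, 225 and 215 TPM in numbers 1 to 3 and 86.2, 60.8 and 52.0 TPM in numbers 4 to 6, all below 8C. The difference from 8C was -1.21 ± 0.32 (SE, adjusted p = 0.0217), with 12.1% of all genes passing, at -0.36 within numbers 1 to 3 (adjusted p = 0.0312) and -2.0 within numbers 4 to 6 (adjusted p = 3.3e-05). It missed the threshold without 8C-V replicate 4 (adjusted p = 0.0516) or 8C-V replicate 5 (adjusted p = 0.0541). Without EPZ6438 (8C-E) it was 297, 311 and 255 TPM in numbers 1 to 3, 118, 103 and 113 TPM in numbers 4 to 6 and 261 TPM in number 7. These values overlap 8C, and 0 of the 5 members tested in limma passed in 8C-E against 8C, where 6.77% of all genes did (1 member had an unadjusted p under 0.05). For Slc16a3 that difference was 0.049 within numbers 1 to 3 (adjusted p = 0.818) and -1.23 within numbers 4 to 6 (adjusted p = 3.5e-05). VPA alone was 0.73 ± 0.36 (SE) above neither compound without the replicate number as a block (adjusted p = 0.279). The libraries of a number deviated together in these media, and with the number as a block the same difference passed (adjusted p = 3.7e-06, with 35.7% of all genes passing), as it did within numbers 1 to 3 (0.66, adjusted p = 1.2e-04) and within numbers 4 to 6 (0.82, adjusted p = 0.00281). For EPZ6438 alone against neither compound, the difference of Slc16a3 was 0.15 with the block (adjusted p = 0.107), 0.25 within numbers 1 to 3 (adjusted p = 0.0191) and 0.051 within numbers 4 to 6 (adjusted p = 0.931). EPZ6438 alone against VPA alone differed by -0.67 without the block (adjusted p = 0.373) and by -0.59 with it (adjusted p = 0.00102), where Slc16a1 (-0.32, adjusted p = 0.00156) and Mpc1 (-0.21, adjusted p = 0.0101) also passed, as did 41.2% of all genes.

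**Figure D2:**
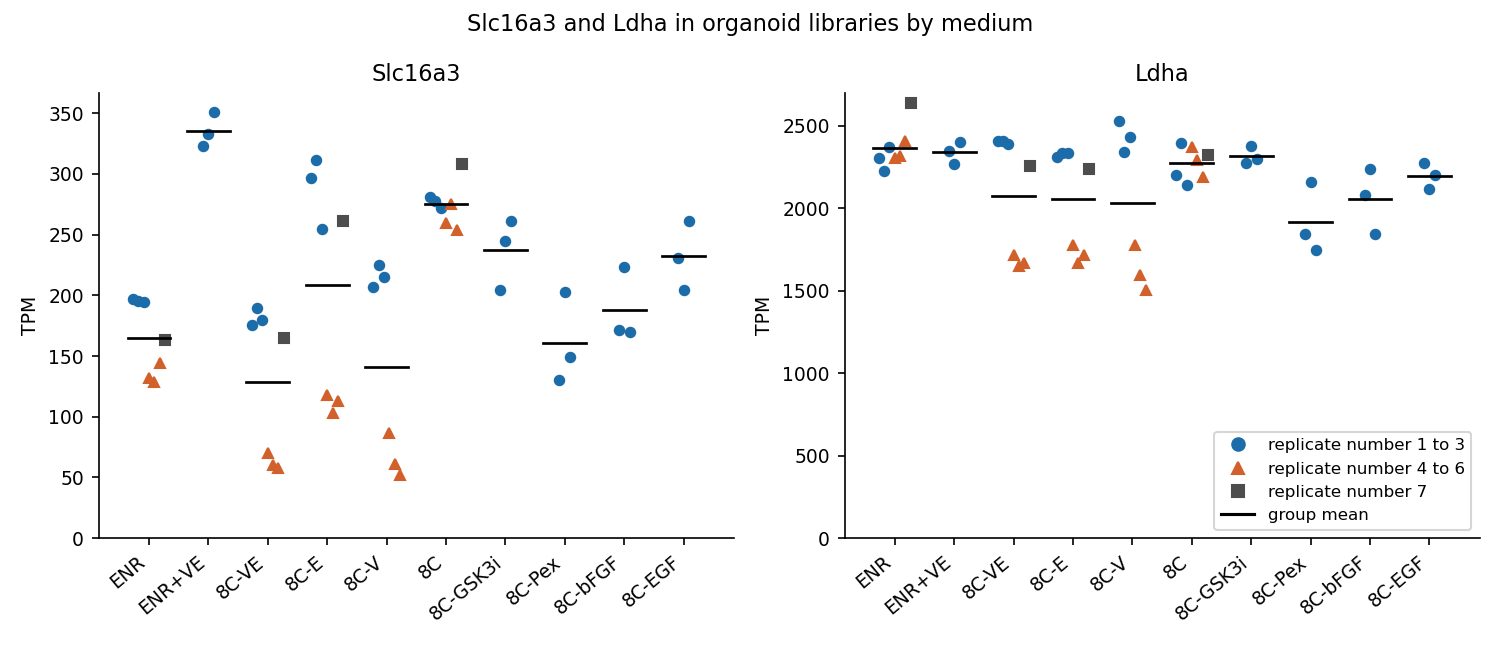
Slc16a3 (left) and Ldha (right) in TPM for each organoid library by medium, with symbols for the replicate number and a bar for the group mean. In 8C-VE, 8C-E and 8C-V the libraries numbered 4 to 6 lie below those numbered 1 to 3 for both genes, with Slc16a3 between 52.0 and 118 TPM, whereas in 8C the sets overlap.

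Removal of Pexmetinib, an inhibitor of p38 kinases and Tie2, also came with lower Slc16a3. The 8C-Pex libraries held 131, 203 and 149 TPM, all below 8C, and the difference was -0.80 ± 0.13 (SE, adjusted p = 0.0263). It was 1 of 5 members tested to pass, where 0.591% of all genes passed, and the adjusted p reached 0.23 without 8C-Pex replicate 1 and 0.18 without 8C-Pex replicate 3. It also missed the threshold without 8C replicate 1, 3 or 5 (adjusted p of 0.0609, 0.0509 and 0.0598) and with the replicate block (adjusted p = 0.0553). Against 8C numbers 1 to 3 the difference was -0.81 (adjusted p = 0.0247), and against numbers 4 to 6 it was -0.73 (adjusted p = 0.0612). The 8C-bFGF libraries, at 169.8 to 223 TPM, were also all below 8C (difference -0.56, unadjusted p = 0.00042, adjusted p = 0.804), in a comparison where 0.00779% of all genes passed. Against 8C numbers 1 to 3 the 8C-bFGF difference was -0.57 (adjusted p = 0.0365), and against numbers 4 to 6 it was -0.49 (adjusted p = 0.815). Marker sums of 8C-Pex also lay apart from 8C, at 3286 to 4562 against 1712 to 2718 TPM for goblet cells, 2071 to 2680 against 597 to 1645 TPM for enteroendocrine cells and 8.97 to 12.8 against 1.3 to 2.44 TPM for tuft cells, and their part in the Slc16a3 and hypoxia gene levels was not tested. In limma, 0 of 5 members passed without GSK3iXV, FGF2 or EGF, with 0, 1 and 1 members at an unadjusted p under 0.05, where 0%, 0.00779% and 0.514% of all genes passed.

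Part of a list of genes that respond to hypoxia was lower in 8C-Pex and in 8C-VE than in 8C. Of the list of 14 hypoxia pathway genes, 5 were lower and 0 higher in 8C-Pex against 8C, with a list median of -1.08 against -0.06 over all genes, of which 0.241% were lower. They were Ankrd37 (-2.30, adjusted p = 0.001), Egln3, the oxygen-sensing prolyl hydroxylase (-1.53, adjusted p = 0.0195), P4ha1 (-1.23, adjusted p = 0.0432), the mitophagy receptor gene Bnip3 (-1.19, adjusted p = 0.0247) and Ndrg1 (-0.99, adjusted p = 0.0363). Against 8C numbers 1 to 3 the count was 8 of 14, where 7.07% of all genes were lower, and against 8C numbers 4 to 6 it was 2 of 14, where 0.532% were. In 8C-VE against 8C, 4 were lower and 0 higher, among them Bnip3 (-1.35, adjusted p = 1.9e-04), with a list median of -0.61 against -0.01 over all genes, of which 17.2% were lower. Within numbers 1 to 3 of that comparison 3 of 14 were lower, with a list median of -0.10 and 16.4% of all genes lower, and within numbers 4 to 6 11 of 14 were lower, with a list median of -1.13 and 21.6% of all genes lower. In ENR+VE against ENR, 3 of 14 were higher, Adm (1.64, adjusted p = 0.00276), Bnip3 (1.31, adjusted p = 2.9e-04) and P4ha1 (1.11, adjusted p = 0.00624), where 17.3% of all genes were higher. Against ENR numbers 1 to 3 this was 5 of 14, with a list median of 0.18 and 22.8% of all genes higher, and against ENR numbers 4 to 6 it was 12 of 14, with a list median of 1.24 and 39.7% of all genes higher.

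The same list moved with the replicate numbers. In 8C-VE, 8C-E and 8C-V, 11 of the 14 genes were lower in numbers 4 to 6 than in numbers 1 to 3 without overlap, with median ratios of 0.525, 0.459 and 0.518. Ankrd37 averaged 70.6 TPM in numbers 1 to 3 and 11.1 TPM in numbers 4 to 6 of 8C-VE. In ENR 13 of 14 were lower without overlap, with a median ratio of 0.548. In 8C, 5 of 14 were lower without overlap and the median ratio was 0.899. Over all 12625 genes, 37.3%, 34.1% and 39.7% were lower without overlap in 8C-VE, 8C-E and 8C-V, 45.7% in ENR and 19.3% in 8C. Pdk4, a kinase that shuts off pyruvate dehydrogenase, went the other way, from 0.593 to 8.14 TPM in 8C-VE. What the numbers stand for is not given by the labels, and its part in the levels of Slc16a3 was not tested.

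Ldha was the most abundant member by far, and over all libraries its group means differed little between media. Group means lay between 1914 TPM in 8C-Pex and 2367 TPM in ENR. Its difference was -0.21 ± 0.11 (SE) in 8C-VE against ENR (adjusted p = 0.258, 95% interval -0.44 to 0.01) and -0.15 ± 0.10 (SE) in 8C-VE against 8C (adjusted p = 0.319, 95% interval -0.37 to 0.06). These differences came from part of the libraries. In 8C-VE, numbers 1 to 3 held 2409, 2410 and 2392 TPM and numbers 4 to 6 held 1714, 1652 and 1671 TPM, so that the difference from 8C was 0.10 within numbers 1 to 3 (adjusted p = 0.376) and -0.44 within numbers 4 to 6 (adjusted p = 0.00205). From ENR it was 0.063 (adjusted p = 0.316) and -0.48 (adjusted p = 0.0013). Within numbers 4 to 6 Ldha was also below 8C in 8C-V (-0.49, adjusted p = 0.00157) and 8C-E (-0.41, adjusted p = 0.00248). Within numbers 1 to 3 these differences were 0.12 (adjusted p = 0.493) and 0.051 (adjusted p = 0.757).

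Slc16a1, the carrier that works in both directions and serves butyrate uptake in the gut, had group means between 139 TPM in ENR and 184 TPM in 8C-E. Over all libraries it passed in none of the organoid comparisons in limma without the replicate block, and the sets of numbers differed. In 8C-VE it was 215, 227 and 235 TPM in numbers 1 to 3, 108, 151 and 133 TPM in numbers 4 to 6 and 201 TPM in number 7. Within numbers 1 to 3 it was 0.61 higher in 8C-VE than in ENR (adjusted p = 1.5e-04), and within numbers 4 to 6 it was 0.13 higher (adjusted p = 0.488). Slc16a1 in ENR+VE differed by -0.62 from 8C-VE numbers 1 to 3 (adjusted p = 0.00146) and by 0.18 from numbers 4 to 6 (adjusted p = 0.358). From ENR it differed by -0.0037 in numbers 1 to 3 (adjusted p = 0.981) and by 0.31 in numbers 4 to 6 (adjusted p = 0.0353). In 8C-V against 8C it differed by 0.081 within numbers 1 to 3 (adjusted p = 0.793) and by -0.59 within numbers 4 to 6 (adjusted p = 0.00287), and with EPZ6438 alone against neither compound by -0.30 (adjusted p = 0.04) and -0.23 (adjusted p = 0.467). With the block, it fell by 0.27 with EPZ6438 alone against neither compound (adjusted p = 0.0148), where 2 of 6 members and 28% of all genes then passed.

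The group means of the pyruvate carrier genes over all libraries differed by less than 1.5 times. Mpc1 had group means between 87.1 and 117 TPM and Mpc2 between 25.1 and 33.6 TPM, and Mpc1 was 3.01 to 4.69 times Mpc2 in the group means of the ratio. Against 8C, Mpc1 passed within numbers 4 to 6, at -0.61 in 8C-VE (adjusted p = 0.00121), -0.68 in 8C-V (adjusted p = 7.4e-04) and -0.55 in 8C-E (adjusted p = 0.00377). Within numbers 1 to 3 the same differences did not pass, at -0.07 (adjusted p = 0.576), -0.09 (adjusted p = 0.64) and 0.19 (adjusted p = 0.342). Mpc1 was 0.30 ± 0.09 (SE) higher in ENR+VE than in 8C-VE (adjusted p = 0.0435), a call that was lost without any 1 of the 3 ENR+VE libraries, with adjusted p between 0.065 and 0.196. In that comparison 3 of 6 members passed, Ldhb, Slc16a3 (1.55, adjusted p = 0.0189, and 0.0686 to 0.0799 without any 1 ENR+VE library) and Mpc1, where 19.1% of all genes passed. For Slc16a3 the difference was 0.88 against 8C-VE numbers 1 to 3 (adjusted p = 2.2e-05), the numbers that ENR+VE has, and 2.40 against numbers 4 to 6 (adjusted p = 6.0e-06). In 8C-VE against ENR, 0 of 5 members passed in limma and 2, Mpc1 and Mpc2, had an unadjusted p under 0.05, where 9.35% of all genes passed. Mpc1 was lower there within each set, at -0.35 in numbers 1 to 3 (adjusted p = 0.00121) and -0.39 in numbers 4 to 6 (adjusted p = 0.00694), and Mpc2 differed by -0.11 (adjusted p = 0.365) and -0.47 (adjusted p = 0.0113). ENR replicate 7, which is in the pooled test and in neither set, held 67.8 TPM of Mpc1, below the other ENR libraries. With the replicate number as a block, Mpc2 fell by 0.29 there (adjusted p = 0.0339) as 1 of 5 members, where 19% of all genes passed.

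**Figure D3:**
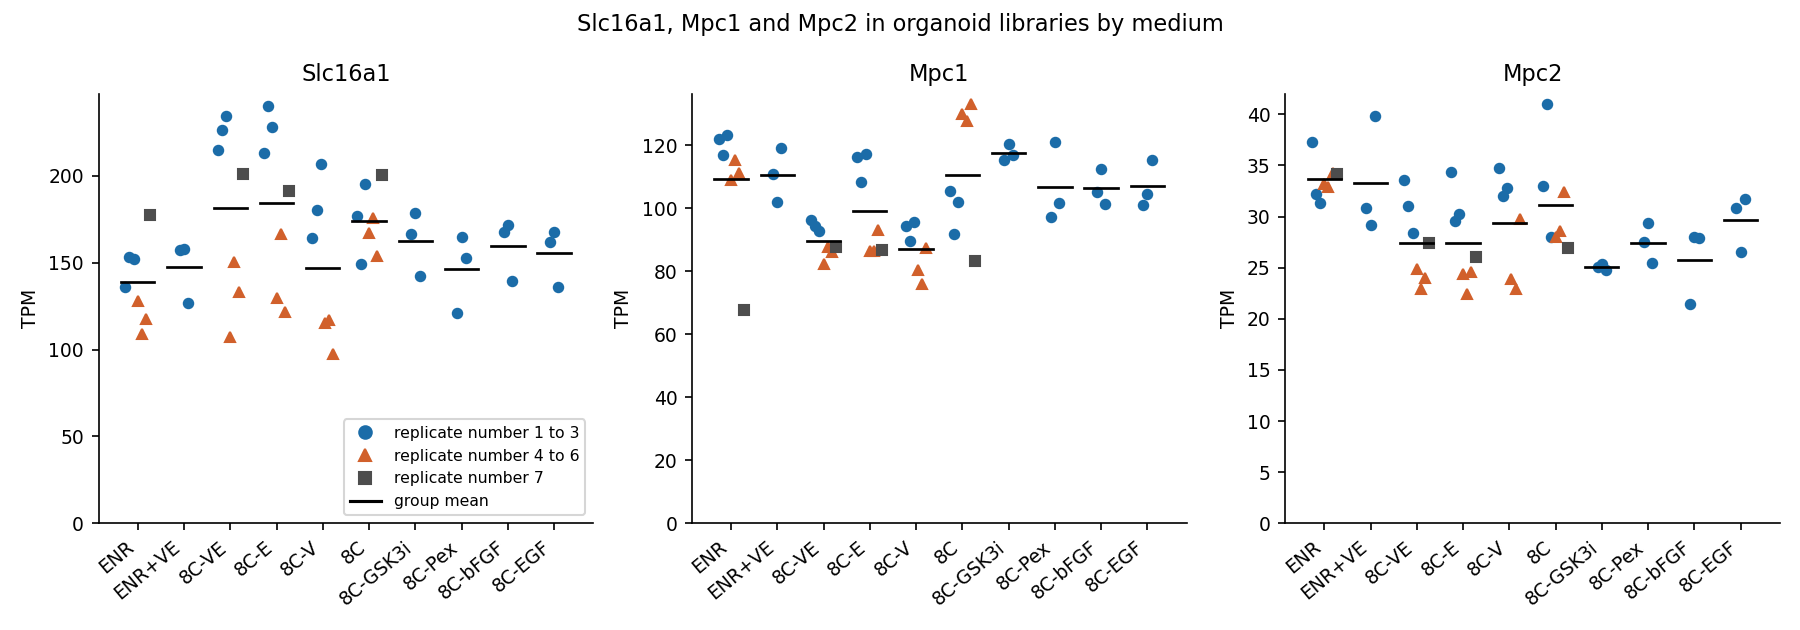
Slc16a1, Mpc1 and Mpc2 in TPM for each organoid library by medium, with symbols for the replicate number and a bar for the group mean. Group means stay between 139 and 184 TPM for Slc16a1, 87.1 and 117 TPM for Mpc1 and 25.1 and 33.6 TPM for Mpc2. For Slc16a1 the libraries numbered 4 to 6 lie below those numbered 1 to 3 in ENR, 8C-VE, 8C-E and 8C-V.

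Whether the effect of VPA depends on EPZ6438 was asked by the interaction of both compounds over 8C, 8C-E, 8C-V and 8C-VE. In limma, 0 of 5 members passed and 0 had an unadjusted p under 0.05, where 0.653% of all genes passed. The interaction of Slc16a3 was 0.48 ± 0.51 (SE), with a 95% interval from -0.57 to 1.54. Within numbers 4 to 6 it was 1.18 (adjusted p = 0.00759) and within numbers 1 to 3 it was -0.30 (adjusted p = 0.232), so the sign rests on the set of numbers. Ldha (0.46, adjusted p = 0.0234) and Mpc1 (0.62, adjusted p = 0.0106) also passed within numbers 4 to 6. Within numbers 1 to 3 they were -0.068 (adjusted p = 0.912) and -0.17 (adjusted p = 0.583). For Ldhb the interaction was -1.18 and is a description, since 8C libraries enter it.

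Other genes of lactate and pyruvate metabolism were read from lists. Emb, a partner of the lactate carriers, averaged 0.182 TPM in ENR, 0.255 TPM in 8C-VE and 8.72 TPM in 8C. It was 1.39 higher with EPZ6438 alone than with neither compound (adjusted p = 9.3e-05), differed by -2.79 in 8C-VE against 8C (adjusted p = 2.9e-06) and was 1.95 higher in ENR+VE than in ENR (adjusted p = 2.5e-07). Emb met the 1 TPM minimum only through the group where it is high, and without a minimum these adjusted p were 5.1e-04, 7.7e-05 and 1.8e-07. Bsg, the other partner, was 0.38 higher with VPA alone (adjusted p = 0.0222) and fell by 0.73 in 8C-VE against 8C (adjusted p = 0.00517). Of 24 glycolysis genes tested in 8C-VE against 8C, 6 were lower, led by Hk1, a hexokinase (-1.79, adjusted p = 2.3e-05), and 2 were higher, among them Slc2a2 (1.03, adjusted p = 0.0101), a glucose transporter gene of enterocytes, where 17.2% of all genes were lower and 6.27% higher. In ENR+VE against ENR, 6 of 24 were higher and 0 lower, led by Hk1 (1.91, adjusted p = 0.00101), where 17.3% of all genes were higher. This count pools all ENR libraries, while ENR+VE has numbers 1 to 3 only. Within ENR, 14 of 27 glycolysis genes were lower in numbers 4 to 6 without overlap and 4 were higher. The shares of all genes there were 45.7% and 17.2%. The list and marker counts that follow for organoids were not split by number either. Of 16 genes of the TCA cycle, 0 passed in ENR+VE against ENR and 3 in 8C-VE against 8C, beside 20.7% and 23.4% of all genes. Of 11 genes of pyruvate dehydrogenase and its regulators, Pdk4 (4.61, adjusted p = 4.9e-08), Pdk3 (0.76, adjusted p = 2.1e-04) and Pdp1 (0.53, adjusted p = 0.0162) were higher in ENR+VE than in ENR, again beside 17.3% of all genes.

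Cell type markers moved in the same comparisons. In 8C-VE against 8C, 6 of 6 Paneth cell markers and 4 of 6 enterocyte markers were higher and 0 lower, as were 2 of 4 goblet cell markers, where 6.27% of all genes were higher. The stem cell marker Olfm4 was higher as 1 of 5 (5.93, adjusted p = 1.6e-09), and the stem cell markers summed to 2213 TPM on average in 8C-VE and 1084 TPM in 8C. In ENR+VE against ENR 4 of 6 Paneth cell markers were lower, where 3.41% of all genes were lower, and 4 of 5 enteroendocrine markers were higher, where 17.3% were higher. Enteroendocrine markers summed to 1307 to 1363 TPM in ENR+VE and 606 to 979 TPM in ENR. Of 5 stem cell markers 1 was higher there and Olfm4 was lower (-1.18, adjusted p = 5.8e-04), with sums of 1907 TPM on average in ENR+VE and 3121 TPM in ENR. Their part in the levels of Slc16a3 and Ldhb was not tested. Markers of epithelium summed to between 4989 and 8703 TPM in the organoid libraries. Markers of muscle and stroma (7 genes) were low but higher in ENR+VE and 8C than in ENR and 8C-VE, with a sum that averaged 0.507 TPM in ENR (0.323 to 0.745 TPM), 0.593 TPM in 8C-VE (0.328 to 0.949 TPM), 2.74 TPM in ENR+VE (2.20 to 3.63 TPM) and 3.08 TPM in 8C (1.06 to 5.30 TPM). It averaged 2.02 TPM in 8C-E and 0.960 TPM in 8C-V. Over the organoid libraries Des reached 4.38 TPM, Col1a1 2.23 TPM, Pdgfra 0.998 TPM and Pecam1 0.887 TPM, while Acta2, Myh11 and Col3a1 reached at most 0.359 TPM. The 7 immune markers summed to 2.13 TPM on average in 8C-VE and 1.41 TPM in 8C, with Itgam up to 2.93 TPM, Lyz2 up to 2.20 TPM and Csf1r up to 1.13 TPM, and the other 4, Ptprc among them, at most 0.405 TPM. The part of both in the Ldhb level was not tested.

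In crypts, Ldhb was low throughout and higher at days 2 and 3 after irradiation. It was 0.479 and 0.876 TPM in normal crypts, 0.901 and 0.639 TPM at day 1, 2.08 and 3.60 TPM at day 2, 2.68 and 3.15 TPM at day 3, and 0.574 and 0.260 TPM at day 5. The libraries of days 2 and 3 lie above all the others. The rise over normal crypts was 1.18 ± 0.24 (SE) at day 2 (adjusted p = 0.00136) and 1.23 ± 0.24 (SE) at day 3 (adjusted p = 3.6e-04), with all crypt groups in one fit. It was 1.76 and 2.40 on quantile-normalized values and 1.67 and 1.92 after removal of mitochondrial genes, each past the threshold. Both settings kept the same minimum mean. Ldhb met the minimum mean of 1 TPM over the crypt libraries only through days 2 and 3, with group means of 2.11 to 3.74 TPM there and 0.417 to 0.824 TPM in the other groups, so that its inclusion in the test depended on the rise itself. Without the minimum the adjusted p was 0.0807 at day 2 and 0.0296 at day 3. At day 3 Ldhb made up 0.325% ± 0.0109 (SD, n = 2) of the TPM of the subunit genes, against 0.0573% ± 0.0230 (SD, n = 2) in normal crypts. Markers of immune cells summed to 39.3 TPM on average in normal crypts and 14.7 and 22.2 TPM at days 2 and 3, and those of red cells to 60.6, 1.43 and 3.79 TPM. Both sums were also low at day 5, where Ldhb was low, and their part in the Ldhb level was not tested. Lgr5, the stem cell marker, had a median of only 0.686 TPM over the crypt libraries.

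The crypt libraries differ in scale, and that decides the direction of several members. The mitochondrial share was 12.7% to 18.1% in normal crypts, 32.6% to 39.9% at day 2, 37.9% to 48.4% at day 3 and 11.8% to 12.3% at day 5. The median difference from normal crypts over all genes was -0.36, -0.61, -1.04 and 0.27 on the log2 scale at days 1, 2, 3 and 5, and changes are read beside it. In limma, 0 of 6 members passed at day 1 (1 at an unadjusted p under 0.05), where 12.8% of all genes passed. At day 2, 2 members were higher and 2 lower, where 52.9% of all genes passed (6.9% of all genes higher and 46% lower). At day 3, 1 member was higher and 3 were lower, where 74.4% passed, 3.93% higher and 70.5% lower. Ldhb was the higher member at day 3 and 1 of the 2 at day 2, and its inclusion in the test depended on those days, as given above. At day 5, 3 members were higher and 0 lower, where 27.2% passed, 19.7% higher and 7.46% lower. At day 2 the members that passed numbered 1 without IR day 2 replicate 1 and 2 without normal crypt replicate 2.

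In IR crypts Slc16a3 and Ldha were highest at day 5. Slc16a3 was near 5 TPM in normal crypts (5.87 and 4.76 TPM) and 29.0 and 22.7 TPM at day 5, a rise of 2.08 ± 0.28 (SE, adjusted p = 1.1e-04) that also passed with quantile normalization (1.83) and without mitochondrial genes (2.02). At day 2 it was 12.6 and 7.61 TPM, 0.79 ± 0.28 (SE) higher (adjusted p = 0.0289), and this passed under both other scalings (1.44 and 1.22) but not without IR day 2 replicate 1 (adjusted p = 0.263) or normal crypt replicate 2 (adjusted p = 0.156). At day 3 the difference of Slc16a3 was 0.44 on the deposited scale (adjusted p = 0.161), and it passed with quantile normalization (1.64) and without mitochondrial genes (1.07). Ldha averaged 1179.6 TPM in normal crypts and 2079 TPM at day 5, 0.82 ± 0.19 (SE) higher (adjusted p = 0.00653), and it passed under both other scalings (0.96 and 0.71). At day 2 Ldha differed by 0.19 on the deposited scale (adjusted p = 0.423) and passed with quantile normalization (0.67, adjusted p = 0.00687) and without mitochondrial genes (0.63, adjusted p = 0.00759). At day 3 its difference changed sign, from -0.40 (adjusted p = 0.0713) to 0.16 and 0.25. At day 5, 16 of 23 glycolysis genes were higher and 1 lower, where 19.7% of all genes were higher, with a list median of 0.96 against 0.27 over all genes, led by Hk1 (2.7, adjusted p = 8.4e-06), the glucose transporter gene Slc2a1 (1.87, adjusted p = 6.3e-04) and the phosphofructokinase gene Pfkl (1.76, adjusted p = 9.3e-04). Of the 14 hypoxia pathway genes, 6 were higher and 0 lower at day 5, led by Egln3 (2.33, adjusted p = 2.6e-05). Markers of cycling cells summed to 64.4 to 90.8 TPM in normal crypts and 120.9 to 145.5 TPM at day 5, and those of Paneth cells to 17497 to 42565 TPM and 9880 to 10859 TPM. At day 2 those of Paneth cells summed to 8562 to 12523 TPM. Enterocyte markers summed to 5912 to 10939 TPM in normal crypts and 19575 to 23016 TPM at day 2. The part of these sums in the differences was not tested.

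Slc16a1, Mpc1 and Mpc2 fell at day 3 on the deposited scale, by about as much as the median gene. The differences were -1.12 ± 0.25 (SE, adjusted p = 0.00102) for Slc16a1, -0.89 ± 0.23 (SE, adjusted p = 0.00242) for Mpc1 and -1.09 ± 0.25 (SE, adjusted p = 0.00113) for Mpc2, beside -1.04 over all genes. With quantile normalization they were 0.08, 0.06 and -0.17, none past the threshold, so that Slc16a1 and Mpc1 changed sign. Without mitochondrial genes they were -0.54 (adjusted p = 0.0494), -0.25 and -0.44. At day 2 Slc16a1 (-0.79, adjusted p = 0.0166) and Mpc2 (-0.73, adjusted p = 0.0225) were lower on the deposited scale and passed under neither of the other scalings. At day 5 Slc16a1 was 0.72 ± 0.25 (SE) higher (adjusted p = 0.0437), and this too passed under neither. Mpc2 at day 5 differed by -0.64 on the deposited scale (adjusted p = 0.0689) and passed under both others (-0.82, adjusted p = 0.0183, and -0.75, adjusted p = 0.0301).

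Genes downstream of the pyruvate carrier fell by more than the median gene at day 3. Of 11 genes of pyruvate dehydrogenase and its regulators 10 were lower, with a list median of -1.51, and of 16 genes of the TCA cycle 16 were lower, with a list median of -1.75, where 70.5% of all genes were lower and their median was -1.04. With quantile normalization 8 of 11 and 15 of 16 were lower, with list medians of -0.68 and -0.81 beside 0.03 over all genes, of which 23% were lower. Without mitochondrial genes 10 of 11 and 15 of 16 were lower, with list medians of -1.19 and -1.10 beside -0.57, and 43.4% of all genes were lower. From normal crypts to day 3, marker sums went on average from 8426 to 2969 TPM for enterocytes, from 323 to 25.1 TPM for stem cells, from 77.6 to 17.6 TPM for cycling cells and from 4010 to 2582 TPM for epithelium, and their part in the list differences was not tested. Dlat, a pyruvate dehydrogenase core subunit, differed by -2.28 (adjusted p = 4.6e-06). Pdp1, a phosphatase that switches pyruvate dehydrogenase on, was the one of the 11 that was higher (0.69, adjusted p = 0.0159). Ldhd, the D-lactate dehydrogenase of mitochondria, was higher by 2.84 at day 3 (adjusted p = 2.1e-05) and by 2.88 at day 5 (adjusted p = 1.1e-04).

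**Figure D4:**
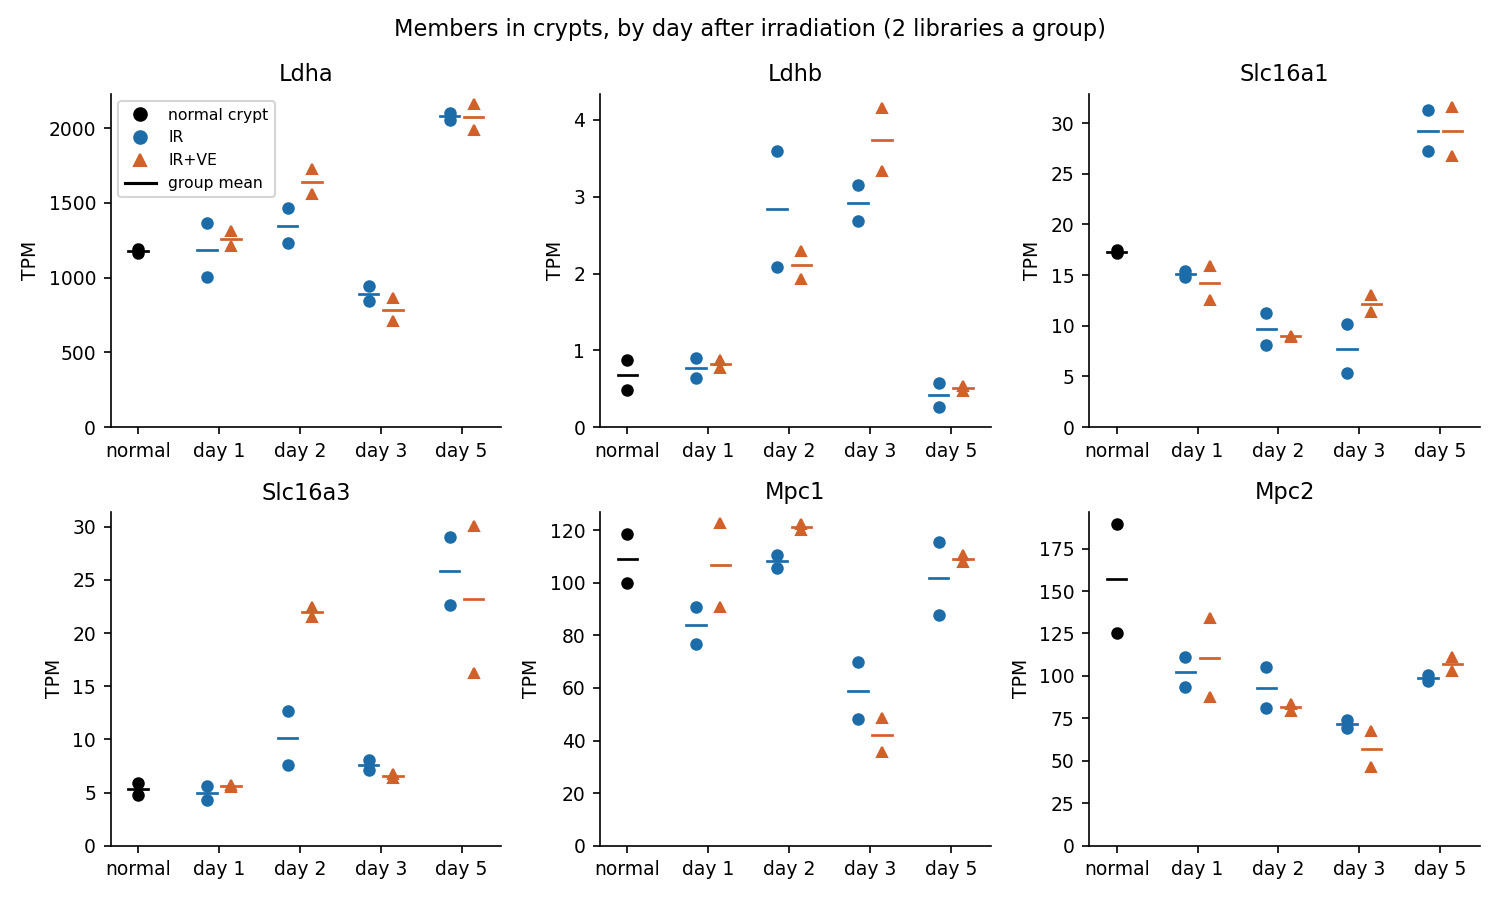
The 6 members in TPM in each crypt library (2 for each group) by day after irradiation, for normal crypts, IR and IR+VE, with a bar for the group mean. Ldhb lies at 1.93 TPM or more in each library of days 2 and 3 and below 1 TPM in the others, while Slc16a1 and Ldha are highest at day 5 and so is Slc16a3 in IR crypts.

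**Figure D5:**
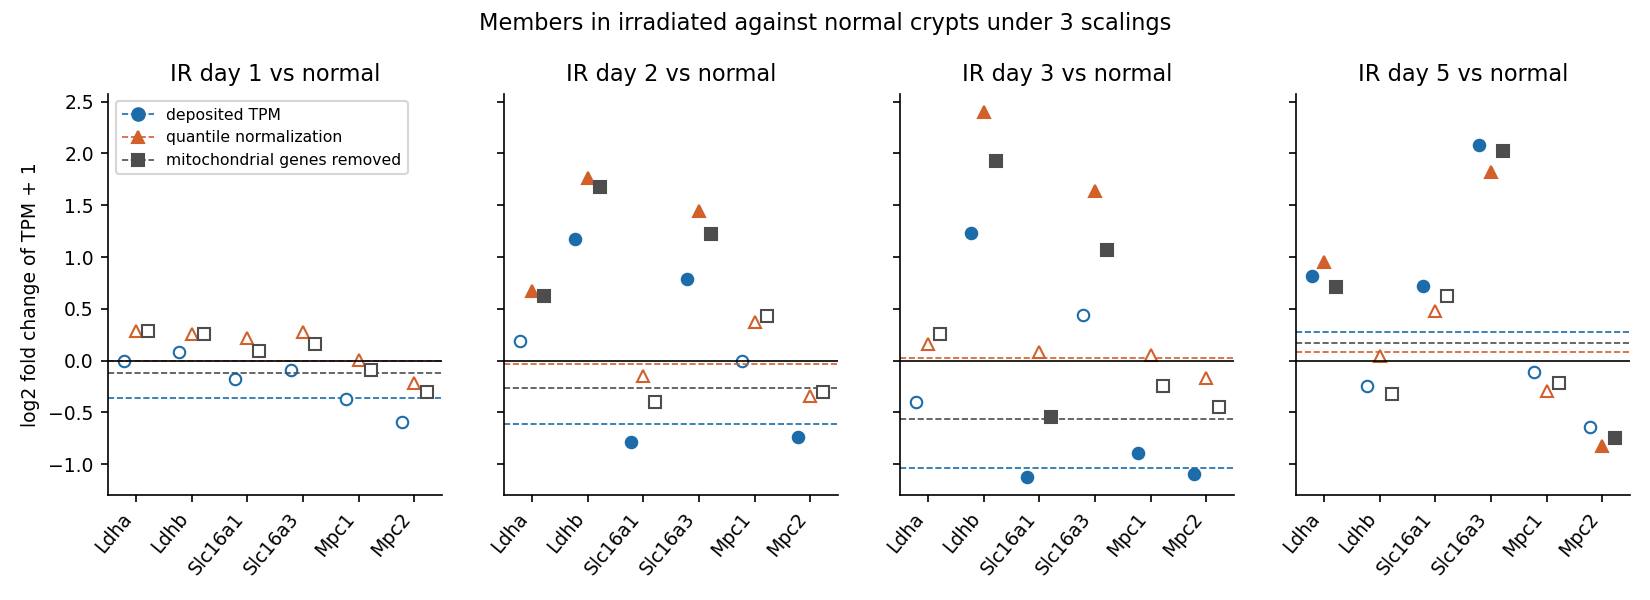
Log2 fold changes of TPM + 1 of the 6 members in IR crypts of each day against normal crypts, on the deposited values, after quantile normalization and after removal of mitochondrial genes. Filled symbols passed at an adjusted p under 0.05, and dashed lines mark the median of all genes, which reached -1.04 at day 3 on the deposited values, where Slc16a1, Mpc1 and Mpc2 lie near it and Ldhb far above it.

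Treatment of irradiated mice with VPA and EPZ6438 came with no change of Ldhb past the threshold on the deposited scale. The IR+VE libraries held 0.873 and 0.776 TPM at day 1, 2.29 and 1.93 TPM at day 2, 3.33 and 4.15 TPM at day 3 and 0.476 and 0.538 TPM at day 5, which is the course of the IR libraries. Over the days the difference was 0.04 ± 0.12 (SE, adjusted p = 0.82, 95% interval -0.22 to 0.29), beside a median of 0.36 over all genes, and with quantile normalization it was -0.45 (adjusted p = 0.029), where Slc16a1 also passed with a changed sign (0.12 to -0.31, adjusted p = 0.049957). In limma, 0 of 6 members passed over the days (0 at an unadjusted p under 0.05), where 54.9% of all genes passed.

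On the deposited scale Slc16a3 at day 2 differed between IR+VE and IR crypts. It was 21.6 and 22.5 TPM with treatment and 12.6 and 7.61 TPM without, a difference of 1.09 ± 0.28 (SE, adjusted p = 0.0345), and 1 of 6 members passed where 14.6% of all genes did. The difference was 0.54 with quantile normalization (adjusted p = 0.345) and 0.90 without mitochondrial genes (adjusted p = 0.179), where 0% of all genes passed, and it missed the threshold without IR day 2 replicate 2 or either treated library (adjusted p of 0.328, 0.12 and 0.212). At day 2 enterocyte markers summed to 29447 to 30648 TPM with treatment and 19575 to 23016 TPM without. Epithelium markers summed to 6264 to 6768 and 4222 to 4382 TPM, and the mitochondrial share was 26.3% to 29.2% and 32.6% to 39.9%. Their part in the difference was not tested. At day 3 Slc16a1 was 0.64 ± 0.25 (SE) higher with treatment (adjusted p = 0.0422), close to the median of 0.69 over all genes, and with quantile normalization it was -0.21. It was 1 of 6 members to pass there, where 52.5% of all genes did. Marker sums at day 3 with and without treatment were 59.93 to 75.16 and 22.45 to 27.73 TPM for stem cells and 37.2 to 62.16 and 12.23 to 22.96 TPM for cycling cells. Those of Paneth cells were 33826 to 47318 and 16864 to 32250 TPM, and the part of these sums was not tested. With quantile normalization the members that passed at day 3 were Ldhb (-0.77, adjusted p = 0.0287), Slc16a3 (-1.11, adjusted p = 0.0283), Mpc1 (-0.96, adjusted p = 0.0104) and Mpc2 (-0.76, adjusted p = 0.0299), all lower with treatment, where 24.8% of all genes passed, whereas Ldhb differed by 0.27 on the deposited scale. Without mitochondrial genes those that passed were Ldha (-0.46, adjusted p = 0.0277), Mpc1 (-0.75, adjusted p = 0.0228) and Mpc2 (-0.63, adjusted p = 0.0392), where 40.6% of all genes passed, so that Mpc1 and Mpc2 passed under both of these scalings and not on the deposited one. At days 1 and 5, 0 of 6 members passed in limma, with 0 at an unadjusted p under 0.05 on either day, where 0.00926% and 0.0185% of all genes passed.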

How the data were processed

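Bulk RNA-seq libraries from organoids and crypts were sequenced by the authors. Per the labels' processing notes, the tools were Trimmomatic 0.39, STAR 2.7.3a and featureCounts on the mm10 build. The authors deposited TPM values for 29579 genes in 67 libraries, and how counts became TPM is not given in the sources used here. TPM keeps no number of reads, so depth and counting error are unknown.

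From these values log2(TPM + 1) was computed, genes that averaged 1 TPM or more across the libraries being compared were kept, and groups were compared with limma 3.58.1 in R 4.3.3 (trend and robust options, Benjamini-Hochberg adjustment over all genes tested, threshold 0.05). Crypt groups shared one fit. Replicate numbers were taken as pairs where each same-numbered pair of libraries had correlated deviations over 0.1, which held for 8C-VE against ENR, for 8C-E and 8C-V against 8C-VE, and for 8C-V against 8C and 8C-E. Alternatives were a pseudocount of 0.1, no minimum and a minimum of 5 TPM, quantile normalization, removal of mitochondrial genes, the replicate block, a fit of all 10 organoid groups, a 2-fold minimum, either set of replicate numbers and leaving out each library. Ldhb was not tested where 8C or ENR libraries enter. Named genes were the 6 members, the genes flanking them, the 5 genes most like Ldhb and the 2 most like each other member, Bsg, and list genes that passed with a 2-fold change, largest first. Ndrg1, Pdk3 and Pdp1, under 2-fold, and genes described by replicate number or level were named after their values were seen, and a few genes that the rule names are not reported here. The fits were tested on simulated data. The members and gene lists were chosen with earlier results of these data known.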

Additional observations from a re-analysis of the deposited data

Results flagged for a closer look

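Mpc1 in ENR replicate 7 was 67.8 TPM, while the other ENR libraries held 108.9 to 123 TPM, a gap that lies beyond the spread of the group by Dixon's test. Mpc2 in 8C replicate 2 was 41.1 TPM, and the other 8C libraries held 26.9 to 33.0 TPM. These were 2 of 30 groups of values tested in this way, and chance flags about 1 in 20.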

How the results depend on the processing

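Depth is unknown, crypt groups hold 2 libraries each, and results moved with the set of replicate numbers, the minimum mean and the scaling of the crypt libraries. Of 132 member results, 27 passed, 39 passed under an alternative only and 66 passed under none of them, leaving single libraries aside, and 41 of these 66 changed sign somewhere. The causes were not tested.

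Counts of members that passed moved as follows. With all 10 organoid groups in one fit they were 1 in 8C-VE against ENR, 2 in 8C-VE against 8C, 2 in 8C-V against 8C and 0 in 8C-Pex against 8C. Without a minimum mean, which lets many genes near 0 TPM into the fit, they were 0 in 8C-V against 8C, 0 in 8C-Pex against 8C, 0 at IR day 2, 1 at IR day 3, 1 at IR day 5, and 0 in IR+VE against IR at days 2 and 3. With a 2-fold minimum they were 0 in 8C-Pex against 8C, 1 at IR day 2, 1 at IR day 5 and 0 in IR+VE against IR at day 3, where the count was also 0 with only the groups compared in the fit.

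With quantile normalization they were 1 in 8C-VE against ENR, 2 in 8C-VE against 8C, 2 at IR day 3, 0 and 4 in IR+VE against IR at days 2 and 3, and 2 over the days. Of 54 crypt results 20 changed sign, 13 of which passed under no setting. The others were 0.16 (Ldha), 0.081 (Slc16a1) and 0.056 (Mpc1) at IR day 3, -0.77 (Ldhb) and -0.21 (Slc16a1) in IR+VE against IR at day 3, and -0.45 (Ldhb) and -0.31 (Slc16a1) over the days. Without mitochondrial genes the counts in IR+VE against IR were 0 at day 2 and 3 at day 3, and 16 of 54 crypt results changed sign, 13 of which passed under no setting. The others were Ldha at IR day 3 (0.25), and Ldhb (-0.089) and Slc16a1 (-0.043) over the days. Over all genes, the share of calls that were higher moved with quantile normalization from 26.8% to 54% in 8C-VE against 8C and from 83.5% to 48.4% in ENR+VE against ENR.

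With the replicate block the counts were 1 in 8C-VE against ENR, 2 in 8C-E against 8C-VE, 2 in 8C-V against 8C-VE and 0 in 8C-Pex against 8C, and 7 of 78 organoid results changed sign, 5 of which passed under no setting. The others were Slc16a1 in ENR+VE against ENR (-0.0037) and Ldha in ENR+VE against 8C-VE (-0.040). In the paired comparisons the block changed no call other than those given beside the results.

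Within numbers 1 to 3 the counts were 2 in 8C-VE against ENR, 3 in 8C-E against 8C-VE, 3 in 8C-V against 8C-VE, 4 in ENR+VE against 8C-VE, 4 in 8C-V against 8C-E (from 1) and 1 in 8C-bFGF against 8C. Of 78 organoid results 21 changed sign, 9 of which passed under no setting. The others were Ldha in 8C-VE against ENR (0.063), and against 8C for Ldha in 8C-VE (0.10), Ldha and Slc16a1 in 8C-V (0.12 and 0.081), and Ldha, Slc16a3 and Mpc1 in 8C-E (0.051, 0.049 and 0.19). The rest were Slc16a1 in ENR+VE against ENR (-0.0037), Ldha in ENR+VE against 8C-VE (-0.040) and the interaction of Ldha, Slc16a3 and Mpc1 (-0.068, -0.30 and -0.17). Within numbers 4 to 6, with the groups of 3 kept whole, the counts were 4 in 8C-VE against ENR, 2 in 8C-E against 8C-VE, 3 in 8C-VE against 8C, 4 in 8C-V against 8C, 3 in 8C-E against 8C, 0 in 8C-Pex against 8C, 2 in ENR+VE against ENR, 5 in ENR+VE against 8C-VE and 3 in the interaction. There 7 of 78 changed sign, 6 of which passed under no setting, and the other was Slc16a1 in ENR+VE against 8C-VE (0.18).

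Leaving out 1 library at a time gave counts of 0 to 1 in 8C-VE against ENR, 1 to 2 in 8C-VE against 8C, 0 to 2 in 8C-V against 8C, 0 to 1 in 8C-Pex against 8C, 1 to 3 in ENR+VE against 8C-VE, 1 to 4 at IR day 2, and 0 to 1 and 0 to 2 in IR+VE against IR at days 2 and 3. It moved Slc16a3 in 8C-V against 8C-VE between -0.12 and 0.29, and Ldhb over the days between -0.037 and 0.11. By Spearman's rho, 0 of the 5 genes most like Ldhb remained.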
